A study of Homo sapiens with 12 samples.

Results

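SREBP regulators and lipid targets are described here by 9 genes: SREBF1 and SREBF2, which encode the transcription factors SREBP-1 and SREBP-2, SCAP, INSIG1, INSIG2, FASN, ACACA, SCD and STARD4. They were chosen by name from the 57905 genes of the count table, and 9 of 9 passed the filter on low counts that left 15142 genes for testing. RNA was sequenced from MDA-MB-231 cells, an established human breast cancer line of the triple-negative, mesenchymal-like kind, in 4 groups of 3 libraries. The groups were cells given 1 µM SFN together with 0.5 µM ZA (SFN+ZA), cells given 1 µM SFN (SFN), cells given 0.5 µM ZA (ZA), and cells given vehicle alone, each for 48 h. DMSO at 0.01% and water at 0.05% are recorded for all 4 groups. The labels give only the short forms; SFN usually stands for sulforaphane, an isothiocyanate, and ZA for zoledronic acid, which as a bisphosphonate inhibits farnesyl diphosphate synthase of the mevalonate pathway. The whole study used 1 cell line, and nothing in the labels says that the dishes of a group came from separate cultures, so each p-value is set against a library-to-library spread that may be purely technical.

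SREBPs are made as precursors in the membrane of the endoplasmic reticulum. SCAP escorts them to the Golgi, where proteases release the active factor, and the INSIG proteins hold SCAP back in the endoplasmic reticulum when sterols are plentiful. SREBP-2 is known mainly for genes of cholesterol synthesis and uptake, SREBP-1 mainly for genes of fatty acid synthesis, and INSIG1 is itself a target, which closes a feedback loop. FASN builds palmitate, ACACA makes the malonyl-CoA that FASN uses, SCD introduces a double bond into saturated acyl-CoA, and STARD4 carries cholesterol between membranes. The process is controlled largely at the protein level, and the libraries measured RNA.

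In the hg19 coordinates of the deposited annotation, SREBF1 (ENSG00000072310) lies at chr17:17713713-17740325 on the minus strand, SREBF2 (ENSG00000198911) at chr22:42229109-42303312 on the plus strand and SCAP (ENSG00000114650) at chr3:47455203-47518616 on the minus strand. INSIG1 (ENSG00000186480) lies at chr7:155089486-155101945 and INSIG2 (ENSG00000125629) at chr2:118846028-118868573, both on the plus strand. FASN (ENSG00000169710) lies at chr17:80036214-80056208 on the minus strand, ACACA (ENSG00000132142) at chr17:35441923-35766909 on the minus strand, SCD (ENSG00000099194) at chr10:102106881-102124591 on the plus strand and STARD4 (ENSG00000164211) at chr5:110831731-110848288 on the minus strand. Whether counting used strand is not given in the sources used here. SREBF1 overlaps the 3' end of RAI1 on the other strand, and RAI1's mean count was 19.3% of that of SREBF1; antisense genes overlapping SREBF2 and STARD4 had 2.01% and 2.3% of their counts.

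RefSeq promoter windows of 300 bases on GRCh38.p14, from 250 bases before the annotated start, were found for 8 of the 9 genes; FASN had none. They were searched on both strands for the sterol regulatory element (TCACNCCAC), an E-box (CACGTG), which SREBP-1 can also bind, the CCAAT box of NF-Y, the Sp1 box GGGCGG and an antioxidant response element (TGACNNNGC). The 3 windows below are shown because the SFN+ZA and vehicle libraries did not overlap for INSIG1 and SCD, and because the SREBF2 window is the 1 among the members with a sterol regulatory element. Capitals mark matches to the sterol regulatory element, the E-box and the CCAAT box on either strand; the Sp1 and antioxidant elements are left in lower case.
SREBF2, chr22:41832855-41833154, plus strand: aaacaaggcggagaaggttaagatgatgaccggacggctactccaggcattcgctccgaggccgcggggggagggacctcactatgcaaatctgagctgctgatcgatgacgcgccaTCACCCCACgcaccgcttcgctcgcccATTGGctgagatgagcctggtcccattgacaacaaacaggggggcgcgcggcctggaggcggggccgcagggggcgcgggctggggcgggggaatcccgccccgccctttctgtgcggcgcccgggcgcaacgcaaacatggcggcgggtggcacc
INSIG1, chr7:155297628-155297927, plus strand: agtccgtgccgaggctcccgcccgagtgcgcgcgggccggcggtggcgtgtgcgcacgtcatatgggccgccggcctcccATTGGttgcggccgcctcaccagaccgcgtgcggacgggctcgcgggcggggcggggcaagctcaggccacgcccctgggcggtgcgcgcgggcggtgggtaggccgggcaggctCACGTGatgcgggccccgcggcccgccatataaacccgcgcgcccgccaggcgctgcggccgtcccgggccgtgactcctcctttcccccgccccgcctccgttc
SCD, chr10:100346983-100347282, plus strand: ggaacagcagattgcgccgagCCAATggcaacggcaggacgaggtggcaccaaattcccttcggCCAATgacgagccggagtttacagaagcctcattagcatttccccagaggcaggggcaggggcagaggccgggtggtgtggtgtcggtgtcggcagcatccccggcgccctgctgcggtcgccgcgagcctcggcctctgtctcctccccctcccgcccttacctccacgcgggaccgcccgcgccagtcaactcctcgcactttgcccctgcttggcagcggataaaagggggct
Counted from 0 at the annotated start, the SREBF2 window held the sterol regulatory element TCACCCCAC at -133 and a CCAAT box, read on the other strand as ATTGG, at -106. The INSIG1 window held a CCAAT box on the other strand at -170 and an E-box at -55, and the SCD window held CCAAT boxes at -229 and -186. The sterol regulatory element occurred in 1.13% of 35116 promoter windows of this length, the E-box in 7.26%, the CCAAT box in 34.6%, the Sp1 box in 45% and the antioxidant element in 13.3%. These matches describe the letters in the windows and nothing more.

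Library totals ran between 15265377 and 25351286 counts, and the lowest count of any member in any library was 351, for SCAP in SFN replicate 2. Markers of the cell line were high, with VIM at a mean of 1191 CPM (counts scaled to a common library total by the trimmed mean of M-values) and CD44 at 818 CPM, although SPARC stood at 0.949 CPM. Of 7 luminal breast cancer markers, PGR was at 0 and ESR1 averaged 0.0103 CPM, but ERBB2 averaged 95.2 CPM and GATA3 17.3 CPM. CD3E and HBB of blood and immune cells and ADIPOQ and LEP of adipocytes were at 0. SFN replicate 2 and vehicle replicate 2 stood apart from the other 10 libraries. On the first principal component, which held 68.8% of the variance, they scored 194 and 76.5, against -51.9 to -6.85 in the others. Across genes, their log CPM less the gene's median over the 12 libraries was lower the higher the GC content of the transcript. Spearman's rho was -0.798 and -0.598, against -0.465 to 0.638 in the others. Their mitochondrial share of counts was 1.60% and 0.775%, against 1.89% to 5.30% in the others. Results below are therefore given for 12 libraries and for the 10 without these 2.

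Among the 9 genes SCD, the stearoyl-CoA desaturase, had the highest RNA level per length in each of the 12 libraries. Levels per length are the deposited FPKM values, which are scaled by gene length and library total. SCD averaged 200 ± 19.4 FPKM (SD, n = 12) and ranged between 177 and 243 FPKM, above the highest value of any other member. INSIG1 followed at 118 ± 15.3 FPKM and FASN at 115 ± 38.3 FPKM, and the ranges of these neighbours overlapped. Then came SREBF1 at 43.0 ± 14.0 FPKM, SREBF2 at 34.2 ± 10.1 FPKM, STARD4 at 16.0 ± 3.54 FPKM, SCAP at 15.3 ± 4.63 FPKM, INSIG2 at 13.1 ± 3.85 FPKM and ACACA at 11.1 ± 0.806 FPKM. Each of these neighbours overlapped the next over the 12 libraries, so the ranges do not resolve their order. Within each library SREBF1 was nonetheless above SREBF2, at a ratio of 1.05 to 1.39. INSIG1, at 102 to 152 FPKM, lay above the highest value of SREBF1 (55.9 FPKM) and of the other 5 genes below it. Over the 10 libraries, gaps also opened between FASN (110 to 152 FPKM) and SREBF1 (41.9 to 55.9 FPKM), between SREBF2 (34.8 to 42.2 FPKM) and the 4 lowest genes, and between SCAP (14.7 to 19.2 FPKM) and INSIG2 (9.29 to 13.2 FPKM).

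**Figure D1:**
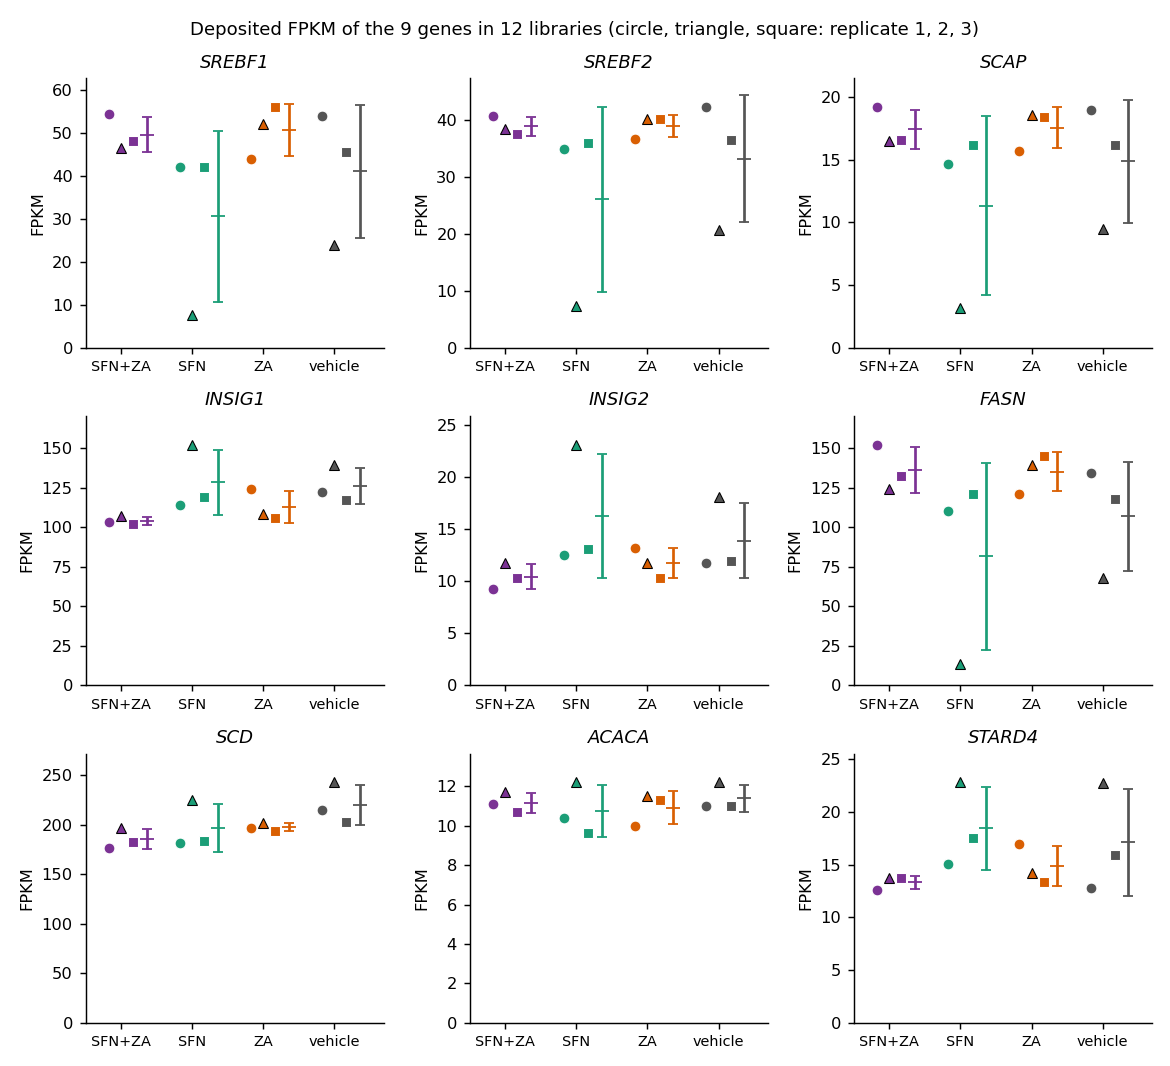
Deposited FPKM of the 9 genes (vertical axis of each panel, starting at 0) in each library of the SFN+ZA, SFN, ZA and vehicle groups (horizontal axis). Each point is 1 library and each bar the group's mean ± SD (n = 3); SFN replicate 2 and vehicle replicate 2 stand low for SREBF1, SREBF2, SCAP and FASN and high for INSIG1, INSIG2, SCD, ACACA and STARD4; FASN was at 13.5 FPKM in SFN replicate 2.

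The 9 genes split into 2 blocks in the libraries that stood apart. FASN, the fatty acid synthase, had 152, 124 and 132 FPKM in SFN+ZA cells, 110, 13.5 and 121 FPKM in SFN cells, 121, 139 and 145 FPKM in ZA cells, and 134, 68.1 and 118 FPKM in vehicle cells. Outside the 2 libraries its values lay between 110 and 152 FPKM. SREBF1 had 54.3, 46.4 and 48.0 FPKM in SFN+ZA cells, 41.9, 7.66 and 42.1 FPKM in SFN cells, 43.9, 52.1 and 55.9 FPKM in ZA cells, and 53.8, 23.9 and 45.4 FPKM in vehicle cells. SREBF2 was at 7.31 FPKM in SFN replicate 2 and at 20.7 FPKM in vehicle replicate 2, against 34.8 to 42.2 FPKM elsewhere, and SCAP was at 3.15 and 9.46 FPKM, against 14.7 to 19.2 FPKM. These 4 low genes have transcripts of 57.1% to 65.3% GC (SREBF2, SCAP, SREBF1, FASN in rising order). The other 5 have 34.2% to 48.7% GC and were higher in both libraries than the median of the other 10. They are called GC-poor here beside the first 4; ACACA, at 48.7%, is close to the median of tested genes, 48.3%.

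Set against the median of the other 10 libraries, the 4 GC-rich members were lower by -2.40 to -3.26 on the log2 scale in SFN replicate 2 and by -0.81 to -0.98 in vehicle replicate 2. FASN stood at 0.104 of that median in SFN replicate 2, and SREBF2 at 0.190 of it. The 5 GC-poor members deviated by 0.14 to 0.96 in SFN replicate 2 and by 0.16 to 0.71 in vehicle replicate 2, with INSIG2 (35.4% GC) highest in the SFN library and STARD4 (34.2% GC) highest in the vehicle library. The distance of the 9 from the trend of tested genes on GC content was -0.63 to 0.45 in SFN replicate 2 and -0.18 to 0.78 in vehicle replicate 2. The largest distances belonged to SREBF2, below the trend in the SFN library, and to FASN, above it in the vehicle library. Whether base composition is the cause was not tested.

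**Figure D2:**
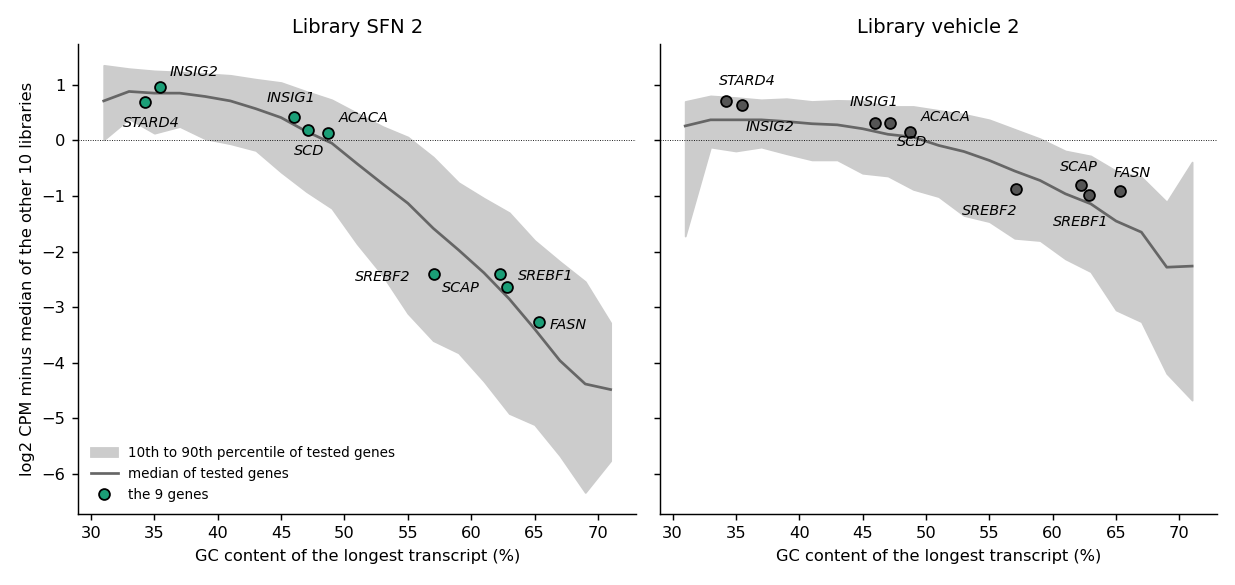
Deviation of each of the 9 genes (labelled points) in SFN replicate 2 and vehicle replicate 2 from the median of the other 10 libraries, as log2 CPM (vertical axis), against the GC content in percent of the longest transcript (horizontal axis). The line is the median and the grey band the 10th to 90th percentile of tested genes per GC bin; FASN, SREBF1, SCAP and SREBF2 lie between -3.26 and -2.40 in the SFN library and the other 5 above 0.

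The same split shaped how the members moved together. Over 12 libraries the 6 pairs among SREBF1, SREBF2, SCAP and FASN had Pearson's r of 0.99 to 1.00 for log2 CPM, the 10 pairs among the other 5 genes had r of 0.25 to 0.95, and the 20 pairs between the blocks had r of -0.92 to -0.50. Over the 10 libraries these ranges were 0.81 to 0.95, -0.71 to 0.86 and -0.83 to 0.59, so the GC-rich genes still moved together and the others did not move as one. INSIG1 and INSIG2 kept r = 0.95 over 12 and 0.86 over 10 libraries, whereas SCD and ACACA had r = 0.62 and 0.19. ACACA ran against STARD4 (r = -0.71) and INSIG1 (r = -0.67) over the 10 libraries, against r = 0.27 and 0.25 over 12. The points are libraries that differ in depth and in their trend on GC content, and the correlations carry no test. Among 9336 protein-coding genes outside the 9 with a mean of 10 CPM or more, those most like INSIG1 were IGBP1 (r = 0.983), TSPAN6 (r = 0.978) and TMEM59 (r = 0.978). Those most like FASN were SUN2 (r = 0.999), FAM173A (r = 0.999) and RAB40C (r = 0.998), each over 12 libraries and with 60.8% to 72.7% GC.

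Ratios within the pathway were steadier outside the 2 libraries. The SREBF1 to SREBF2 ratio of FPKM was 1.17 to 1.39 in 10 libraries, 1.05 in SFN replicate 2 and 1.16 in vehicle replicate 2. The INSIG1 to INSIG2 ratio was 9.10 to 11.0 in 10 libraries, 6.61 in SFN replicate 2 and 7.69 in vehicle replicate 2. The SCD to FASN ratio was 1.17 to 1.72 in 10 libraries, against 16.7 and 3.57 in those 2. Each ratio moved in the direction of the GC contents of its pair.

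The combination of SFN and ZA was set first against vehicle, and INSIG1 and SCD were lower in it without reaching the threshold. INSIG1 had 379, 397 and 380 CPM in SFN+ZA cells, against 447, 518 and 438 CPM in vehicle cells. SCD had 962, 1080 and 1004 CPM in SFN+ZA cells, against 1158, 1328 and 1117 CPM in vehicle cells. Each SFN+ZA library was below each vehicle library for these 2 of the 9 genes, and for 9.63% of the genes tested; none of the 9 separated in the other direction, where 11.5% of genes did. The fitted log2 fold change was -0.28 ± 0.14 (SE) for INSIG1 and -0.24 ± 0.12 for SCD, each with adjusted p = 0.86 in edgeR's quasi-likelihood test. Without the 2 libraries they were -0.22 ± 0.10 (adjusted p = 0.40) and -0.18 ± 0.08 (adjusted p = 0.43), and the groups still did not overlap, as for 14.4% (lower) and 15.5% (higher) of genes; that fit called 0.339% of genes. The mitochondrial share of counts also separated these groups, at 4.69%, 5.00% and 5.30% in SFN+ZA cells, against 3.27%, 0.775% and 1.89% in vehicle cells, and its part in these values was not tested. A lower level in every cell and a lower level in some of the cells cannot be told apart in bulk RNA.

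**Figure D3:**
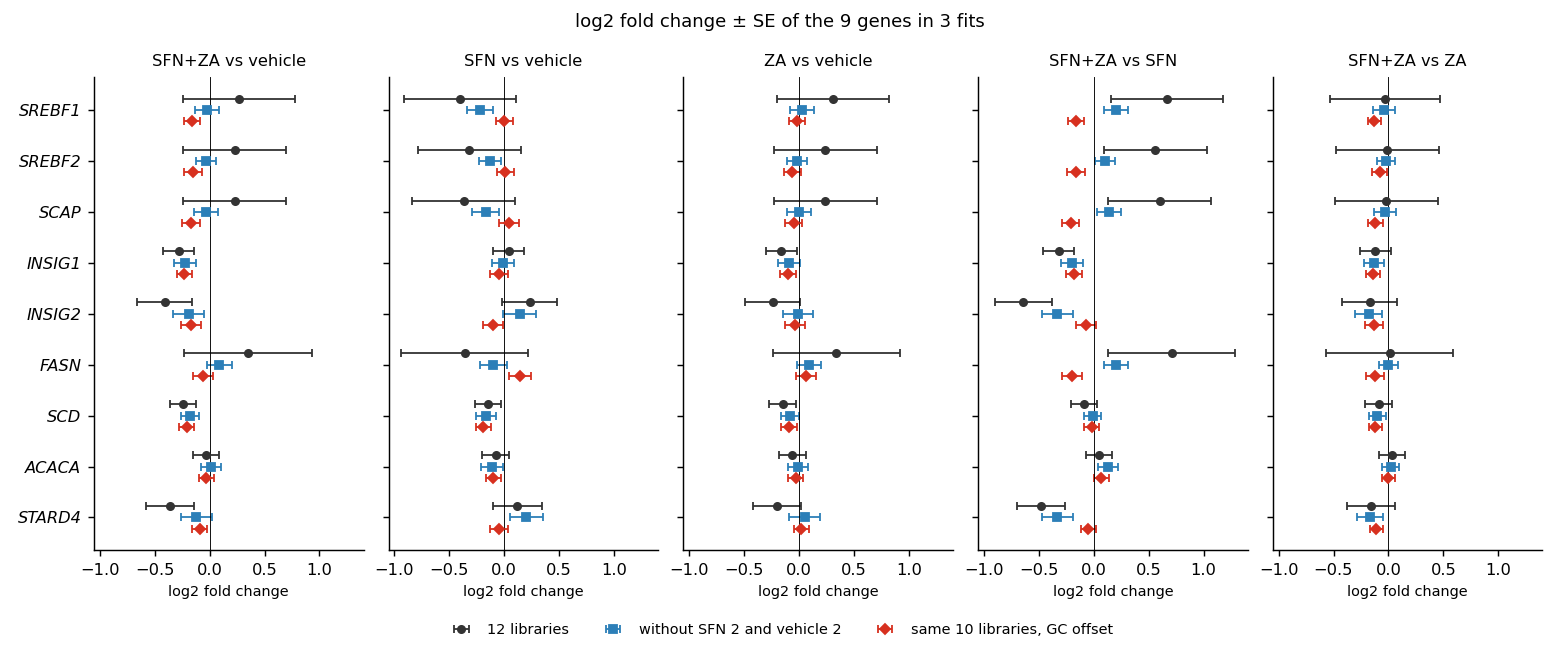
Fitted log2 fold change (horizontal axis) of the 9 genes in 5 comparisons (panels), with bars of ± 1 SE, from the fit of 12 libraries, the fit without SFN replicate 2 and vehicle replicate 2, and the fit that also has a GC offset. Bars of SREBF1, SREBF2, SCAP and FASN narrow most when the 2 libraries are left out: for FASN in SFN+ZA against vehicle the SE is 0.58 with them and 0.11 without them.

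The transcription factors and their escort did not pass the test in the same comparison. SREBF1 was at 0.27 ± 0.51 on the log2 scale, with a 95% interval of -0.72 to 1.26, SREBF2 at 0.23 ± 0.47 and SCAP at 0.23 ± 0.47. Without the 2 libraries SREBF1 was at -0.02 (95% interval -0.23 to 0.20), SREBF2 at -0.03 and SCAP at -0.03, and leaving out vehicle replicate 2 alone gave 0.00, -0.02 and -0.01, so the positive estimates rested on that library. INSIG2, the other retention protein, was at -0.41 ± 0.25 with 12 libraries and at -0.19 ± 0.14 without the 2. Among the targets FASN was at 0.35 ± 0.58 and at 0.09 ± 0.11, ACACA at -0.03 ± 0.12 and at 0.01 ± 0.09, and STARD4 at -0.36 ± 0.22 and at -0.12 ± 0.14, in the same order of fits. Adjusted p-values of the 9 were between 0.86 and 0.94 with 12 libraries, where 0% of the 15142 genes were called at an adjusted p under 0.05. Unadjusted p was under 0.05 for 744 genes (4.91%) and 0 of the 9, and DESeq2's Wald test called 6 genes.

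When a smooth trend on GC content was removed from each library and the 2 libraries were left out, 3.77% of 15353 genes were called for SFN+ZA against vehicle, 1.70% higher and 2.07% lower. None of the 9 was among them. INSIG1 was at -0.23 ± 0.07 with an adjusted p of 0.073, and SCD at -0.21 ± 0.07 with an adjusted p of 0.081, both from edgeR's quasi-likelihood test. All 9 estimates lay below 0 in this fit, between -0.23 and -0.03 with a median of -0.16, where 61.5% of all tested genes lay below 0 with a median of -0.06. SREBF1 was at -0.16 ± 0.07, SREBF2 at -0.15 ± 0.08, SCAP at -0.17 ± 0.08 and INSIG2 at -0.17 ± 0.09. HMGCS1, a textbook SREBP-2 target outside the 9 that makes HMG-CoA, was at 0.05 ± 0.07 and did not pass the test.

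None of the 9 genes passed the test for SFN alone against vehicle. INSIG1 had 430, 560 and 452 CPM in SFN cells, against 447, 518 and 438 CPM in vehicle cells, and SCD had 1009, 1214 and 1023 CPM in SFN cells, against 1158, 1328 and 1117 CPM in vehicle cells. The groups overlapped for each of the 9 genes, and did not overlap for 4.40% (higher) and 3.48% (lower) of tested genes. The lowest estimates were those of SREBF1 at -0.40 ± 0.51, SCAP at -0.37 ± 0.47 and FASN at -0.36 ± 0.58, and the largest positive one was that of INSIG2 at 0.23 ± 0.25. Adjusted p-values of the 9 were between 0.73 and 0.91, with 0% of genes called, 753 (4.97%) at an unadjusted p under 0.05 and 0 calls by DESeq2. Without the 2 libraries, SREBF1, SREBF2, SCD and ACACA were lower in both SFN libraries than in both vehicle libraries and INSIG2 was higher, as were 23.0% (lower) and 24.6% (higher) of tested genes; SREBF1 was then at -0.22 ± 0.12 and SCD at -0.17 ± 0.09. With the GC offset as well, SREBF1 was at 0.00 ± 0.08 and FASN at 0.14 ± 0.10, and 0.0326% of genes were called. SCD kept a negative estimate in all 3 fits, at -0.15 ± 0.12, -0.17 ± 0.09 and -0.19 ± 0.07, and did not pass the test in any of them (adjusted p = 0.73, 0.52 and 0.36).

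With ZA alone, SCD was the 1 member whose libraries did not overlap those of vehicle, and none of the 9 passed the test. SCD had 1097, 1098 and 1050 CPM in ZA cells, against 1158, 1328 and 1117 CPM in vehicle cells. The libraries of these groups did not overlap for 3.05% of genes in this direction and for 4.48% in the other. Its log2 fold change was -0.15 ± 0.12. The mitochondrial share of counts separated these groups as well, at 4.26% to 4.76% in ZA cells, against 0.775% to 3.27% in vehicle cells. Without the 2 libraries it was -0.08 ± 0.08, and the groups did not overlap for 6.36% (lower) and 7.70% (higher) of genes. INSIG1 had 468, 400 and 391 CPM in ZA cells, against 447, 518 and 438 CPM in vehicle cells, and these groups overlapped. FASN was at 0.34 ± 0.58 and SREBF1 at 0.31 ± 0.51 with 12 libraries, and at 0.09 ± 0.11 and 0.03 ± 0.11 without the 2. Adjusted p was 0.98 for each of the 9, 0% of genes were called, 173 (1.14%) had an unadjusted p under 0.05 and DESeq2 called 0; with the GC offset and without the 2 libraries 0.0847% of genes and 0 of the 9 were called. HMGCS1, upstream of the step that zoledronic acid is known to block, was at -0.11 ± 0.20.

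The combination was next set against SFN alone, the comparison in which most of the 9 genes separated. INSIG1 had 379, 397 and 380 CPM in SFN+ZA cells, against 430, 560 and 452 CPM in SFN cells. FASN had 152, 124 and 132 FPKM in SFN+ZA cells, against 110, 13.5 and 121 FPKM in SFN cells. SREBF1, SREBF2, SCAP and FASN were higher and INSIG1, INSIG2 and STARD4 lower in each SFN+ZA library than in each SFN library, but 23.4% of tested genes separated upwards and 23.7% downwards in the same way. Without SFN replicate 2, ACACA also separated upwards, as did 26.6% of genes, with 27.1% downwards. Among the 7 that separated over 12 libraries, the GC-rich members were higher and the GC-poor ones lower; ACACA, which went up, was an exception over the 10. The trend on GC content of log CPM less the gene's median separated the groups too. Spearman's rho was 0.638, 0.228 and 0.365 in SFN+ZA cells, against -0.411, -0.798 and -0.429 in SFN cells. The mitochondrial share of counts separated these groups as well, at 4.69%, 5.00% and 5.30% in SFN+ZA cells, against 4.32%, 1.60% and 3.94% in SFN cells. The parts of the GC trend and of this share were not tested. Log2 fold changes were 0.71 ± 0.58 for FASN, 0.67 ± 0.51 for SREBF1, 0.60 ± 0.47 for SCAP, 0.56 ± 0.47 for SREBF2, -0.64 ± 0.26 for INSIG2, -0.48 ± 0.22 for STARD4 and -0.32 ± 0.14 for INSIG1. Without SFN replicate 2 alone they were 0.20, 0.20, 0.14, 0.10, -0.33, -0.33 and -0.20 in the same order. Adjusted p-values of the 9 ran between 0.22 and 0.78, with 0% of genes called; INSIG1 and INSIG2 were the 2 of the 9 with an unadjusted p under 0.05 (0.043 and 0.029), as were 3312 genes (21.9%), and DESeq2 called 0.

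Leaving out the 2 libraries and removing the GC trend turned the sign of the GC-rich members' estimates. In that fit FASN was at -0.20 ± 0.09, SREBF1 at -0.16 ± 0.07, SREBF2 at -0.16 ± 0.08 and SCAP at -0.21 ± 0.08. INSIG1 kept its direction at -0.18 ± 0.07 (adjusted p = 0.16), and so did INSIG2 at -0.07 ± 0.09 and STARD4 at -0.05 ± 0.07. ACACA alone was above 0, at 0.07 ± 0.07. This fit called 0.723% of genes and 0 of the 9.

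Against ZA alone, no member of the 9 separated or passed the test in the combination. SCD had 962, 1080 and 1004 CPM in SFN+ZA cells, against 1097, 1098 and 1050 CPM in ZA cells, and INSIG1 had 379, 397 and 380 CPM in SFN+ZA cells, against 468, 400 and 391 CPM in ZA cells. The groups of the 9 genes overlapped throughout, against 6.99% (higher) and 5.77% (lower) of genes that did not overlap. With 12 libraries the 9 estimates were between -0.17 and 0.03, and adjusted p was 1.0 for each, with 0% of genes called, 159 (1.05%) at an unadjusted p under 0.05 and 0 by DESeq2. Neither of these groups holds a library that stood apart, but their standard errors came from all 12 libraries: for FASN the 95% interval was -1.13 to 1.14 with the 2 libraries and -0.19 to 0.18 without them, and for SREBF1 it was -1.02 to 0.96 and -0.24 to 0.15. With the GC offset as well, 0.111% of genes and 0 of the 9 were called.

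The interaction, the combination less the sum of the SFN and ZA effects on the log2 scale, also called 0% of genes (257 genes, 1.70%, had an unadjusted p under 0.05, and DESeq2 called 0). It was -0.40 ± 0.36 for INSIG2, -0.28 ± 0.31 for STARD4 and -0.16 ± 0.20 for INSIG1, and between 0.06 and 0.37 for the other 6. Adjusted p-values of the 9 ran between 0.90 and 0.92. With the GC offset and without the 2 libraries the interaction of FASN was -0.26 ± 0.13 and that of INSIG1 -0.08 ± 0.10.

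In the authors' deposited table of comparisons, 0 of the 9 genes were called in any comparison. That table called 0.179% of genes for SFN+ZA against vehicle, and the lowest adjusted p of a member there was 0.634. It called 0.0405% for SFN+ZA against SFN, where the lowest of a member was 0.458, and 0.0437% for SFN+ZA against ZA. It called 0% for SFN or ZA against vehicle.

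The rest of the pathway was read from 5 lists of 100 genes in all: SREBP processing and turnover, mevalonate and cholesterol synthesis, fatty acid and phospholipid synthesis, sterol uptake and transport, and the LXR pathway of sterol-sensing nuclear receptors. Of these genes 97 were tested (THRSP, NPC1L1 and STARD6 were not), and none passed in any of the 6 comparisons with 12 libraries. In SFN+ZA against vehicle, 17 of 21 genes of SREBP processing and turnover and 14 of 22 genes of cholesterol synthesis had estimates below 0, with medians of -0.16 and -0.15, where 48.9% of all tested genes did, with a median of 0.01. Fatty acid and phospholipid synthesis was even, with 13 of 27 below 0 and a median of 0.00, sterol uptake and transport had 9 of 17 below 0 and a median of -0.11, and the LXR list had 8 of 10 above 0 and a median of 0.20. Over the 10 libraries the first 2 lists kept most estimates below 0, with 18 of 21 and 15 of 22 below 0 and medians of -0.10 and -0.12, where 54.0% of all tested genes lay below 0. Fatty acid and phospholipid synthesis then had 21 of 27 below 0 (median -0.08), sterol uptake and transport 13 of 17 (median -0.08), and the LXR list 5 of 10 (median 0.01). Once the GC offset was added, 61.5% of all tested genes lay below 0, and the LXR list turned, with 7 of 10 below 0 and a median of -0.09. In that fit 17 of 21 processing genes, 17 of 22 cholesterol genes, 23 of 27 fatty acid genes and 15 of 17 uptake genes lay below 0. The ends of the lists, with 12 libraries, were far apart and uncertain. ELOVL7, a fatty acid elongase, was at -0.77 ± 0.24, LIPA, the lysosomal acid lipase, at -0.59 ± 0.23, ACAT2, which makes acetoacetyl-CoA, at -0.49 ± 0.26 and SAR1B, a GTPase of the vesicle coat that carries SCAP, at -0.40 ± 0.25. At the upper ends were CYP51A1, the lanosterol demethylase, at 0.89 ± 0.94, MLXIPL, the carbohydrate-responsive factor ChREBP, at 0.72 ± 0.70, APOE, an apolipoprotein, at 0.62 ± 0.91, TMEM129, a ubiquitin ligase of the endoplasmic reticulum, at 0.44 ± 0.79 and STARD3, a late-endosomal sterol carrier, at 0.35 ± 0.48; adjusted p was 0.86 to 0.88 for these 9 genes of the lists in edgeR's quasi-likelihood test, as for ABCA1, the cholesterol exporter, at -0.14 ± 0.17 (adjusted p = 0.87). Levels of 3 of the upper genes were low in vehicle cells, at 1.18 to 9.06 CPM for CYP51A1, 1.91 to 6.53 CPM for MLXIPL and 0.281 to 2.66 CPM for APOE. Each of the log2 fold changes above shrank without vehicle replicate 2, to differing degrees. Without that library alone, LIPA was at -0.35, ACAT2 at -0.17, SAR1B at -0.11, CYP51A1 at 0.41, MLXIPL at 0.36, APOE at 0.12, TMEM129 at 0.01, STARD3 at 0.18 and ABCA1 at -0.07, whereas ELOVL7 was at -0.56. In the annotation ACAT2 overlaps TCP1 and SOD2, with 341% and 199% of its mean count, and SAR1B overlaps SEC24A, with 138%. Reads of these genes may be shared.

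With the GC offset and without the 2 libraries, 8 genes of the lists passed for SFN+ZA against vehicle, 1 higher and 7 lower, where 1.70% and 2.07% of genes did; 7 of them are described here. TMEM97, a sterol-binding protein of the endoplasmic reticulum, had 42.5, 48.6 and 47.8 CPM in SFN+ZA cells, against 59.9, 73.5 and 63.9 CPM in vehicle cells, and fell by 0.45 ± 0.08 on the log2 scale (SE; adjusted p = 0.0067). FDFT1, the squalene synthase, had 169, 178 and 176 CPM in SFN+ZA cells, against 201, 300 and 207 CPM in vehicle cells, and fell by 0.29 ± 0.06 (adjusted p = 0.021). LIPA fell by 0.36 ± 0.09 (adjusted p = 0.043 in edgeR's quasi-likelihood test). RNF145, a ubiquitin ligase that acts on SCAP, fell by 0.23 ± 0.06 (adjusted p = 0.042 in the same test). For TMEM97, FDFT1, LIPA and RNF145 each SFN+ZA library was below each vehicle library, as for 9.63% of tested genes. These genes have 42.8% to 48.6% GC, and vehicle replicate 2 was their highest vehicle library. They were picked by a test on the same groups, so the separation is no separate support. FADS2, a fatty acid desaturase, and NR1H2, the receptor LXR-beta, passed as lower in this fit, at -0.31 ± 0.07 (adjusted p = 0.023) and -0.26 ± 0.07 (adjusted p = 0.044), but with 12 libraries their estimates had the other sign, at 0.10 and 0.20. FADS2 had 363, 334 and 327 CPM in SFN+ZA cells, against 409, 192 and 357 CPM in vehicle cells, and NR1H2 had 95.9, 81.1 and 80.7 CPM in SFN+ZA cells, against 103, 38.8 and 82.3 CPM in vehicle cells. For both genes, at 58.6% and 60.9% GC, the groups overlapped, with vehicle replicate 2 the lowest library. UBE2G2, a ubiquitin-conjugating enzyme of the degradation pathway that removes INSIG1, was the 1 that rose, by 0.38 ± 0.09 (adjusted p = 0.031), with 67.2, 66.6 and 64.4 CPM in SFN+ZA cells, against 47.6, 63.1 and 51.2 CPM in vehicle cells. For UBE2G2 each SFN+ZA library was above each vehicle library, as for 11.5% of tested genes. LIPA overlaps IFIT1, IFIT2 and IFIT3, FADS2 overlaps FADS1 and FEN1, and TMEM97 overlaps IFT20 in the annotation, so reads may be shared. None of the 8 passed with 12 libraries, with the GC offset alone or without the 2 libraries alone, so each of these calls needed both steps.

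**Figure D4:**
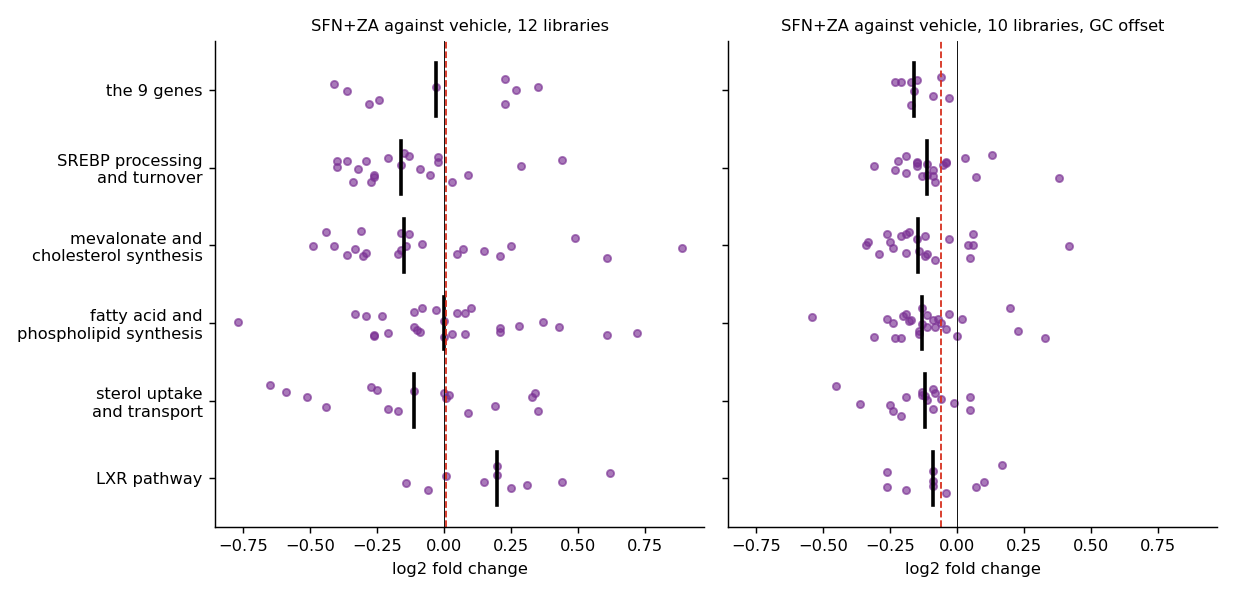
Log2 fold change of SFN+ZA against vehicle (horizontal axis) for the genes of the 5 pathway lists and the 9 members (rows), from the fit of 12 libraries and from the fit with a GC offset and without SFN replicate 2 and vehicle replicate 2. Each point is 1 gene, the black bars are medians of a row and the dashed line is the median of all tested genes; in the second fit the points draw together, the 9 members lie between -0.23 and -0.03, and 8 genes of the lists pass the test.

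The same lists gave no call in the comparisons with SFN, ZA or the interaction, in the fit of 12 libraries or in the one with the GC offset and 10 libraries. For SFN against vehicle with 12 libraries, 12 of 21 processing genes lay above 0 and 12 of 22 cholesterol genes below 0, where 50.8% of all tested genes lay below 0. Over the 10 libraries these counts were 14 above 0 and 13 below 0, where 49.5% of all tested genes lay below 0. SMPDL3A, an LXR target, was at 0.53 ± 0.20 and SC5D, a late enzyme of cholesterol synthesis, at 0.46 ± 0.26, against MCAT, of mitochondrial fatty acid synthesis, at -0.52 ± 0.34. Adjusted p was 0.73 for these 3 in edgeR's quasi-likelihood test. Without SFN replicate 2 alone SC5D was at 0.08 and MCAT at -0.18. For ZA against vehicle, 18 of 21 processing genes lay below 0 with a median of -0.09, where 49.3% of all tested genes did. Over the 10 libraries it was 12 of 21 with a median of -0.02, where 52.4% of all tested genes did, so the excess did not hold there. With 12 libraries FDFT1 was at -0.34 ± 0.17 and TMEM97 at -0.32 ± 0.15 (adjusted p = 0.98 for both in edgeR's quasi-likelihood test); without vehicle replicate 2 alone FDFT1 was at -0.13 and TMEM97 at -0.23. Between SFN+ZA and SFN, PGRMC1, a membrane haem-binding protein, was at -0.72 ± 0.25, SC5D at -0.82 ± 0.27, ACSL4, an acyl-CoA synthetase, at -0.81 ± 0.30 and SOAT1, which esterifies cholesterol, at -0.58 ± 0.21 (adjusted p = 0.22 for each in the same test). These 4 have 37.4% to 44.3% GC, and without SFN replicate 2 alone PGRMC1 was at -0.37, SC5D at -0.46, ACSL4 at -0.40 and SOAT1 at -0.31. Between SFN+ZA and ZA, ELOVL7 was at -0.50 ± 0.23 and UBE2G2 at 0.26 ± 0.16, with adjusted p = 1.0 for both; without ZA replicate 1 UBE2G2 was at 0.16.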

How the data were processed

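RNA of 12 libraries of MDA-MB-231 cells was sequenced. HISAT2, a read aligner, and the build GRCh37/hg19 are named, with no version, in the submitters' processing notes. Which tool counted, whether it used strand, and with which annotation release, is not given in the sources used here. Deposited by the authors were raw read counts per gene, FPKM values that they scaled by gene length and depth, and their log2 fold changes with adjusted p-values, per the file headers. FPKM was used for levels and the counts for tests. The authors' deposited log2 fold changes and p-values were only described.

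Counts were filtered (filterByExpr), scaled by the trimmed mean of M-values and fitted for 4 groups together with edgeR 4.0.16 in R 4.3.3, with robust quasi-likelihood F tests. They are two-sided, with Benjamini-Hochberg adjustment over all 15142 genes, and a gene was called at an adjusted p under 0.05. SE is the log2 fold change divided by the root of F, and intervals called 95% are the estimate ± 1.96 SE. That multiplier leaves out the limited residual degrees of freedom of the F test, so the intervals are somewhat too narrow. The calculation was tested on simulated counts with known fold changes. Those counts held no library that stood apart, and their GC trend, where added, was a straight line set without regard to group. They therefore do not test how the fits deal with the libraries that stood apart here. Depth was 15265377 to 25351286 counts per library. Alternatives were DESeq2 1.42.0 and its size factors, other low-count filters, fits of the compared groups only, a block for replicate number, leaving out libraries, and an offset for the GC content of the longest GENCODE release 29 transcript, available for 98.3% of tested genes (a smoothing spline of 6 degrees of freedom per library). Which libraries to leave out together, SFN replicate 2 and vehicle replicate 2, was chosen from these same data, in which they stood apart. Calls from the fits without them depend on that choice. Recomputing levels over 10 libraries was also added after the data were seen.

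Replicate numbers come from the sample titles. Their deviations from group means correlated by 0.576, 0.604 and 0.258 between SFN and vehicle libraries of the same number, and below 0.1 for at least 1 pair in the other comparisons. Deviations within a group cancel out for each gene, and SFN replicate 2 and vehicle replicate 2 both stood apart. The correlations between SFN and vehicle are therefore not separate signs of pairing.

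The 9 genes and the pathway lists were chosen with earlier results of these data known. Besides the 9 genes, the text names HMGCS1, the called genes of each list or else its highest and lowest estimate at a mean of 1 CPM or more, and the 3 genes most correlated with INSIG1 and with FASN; a selection of these is printed, and some genes of the rule and lists are not reported here.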

Additional observations from a re-analysis of the deposited data

How the results depend on the processing

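Calls for the 9 genes did not depend on the settings tried: 0 of the 9 were called in each of the 6 comparisons by DESeq2's Wald test, with DESeq2's size factors, with other low-count filters, with the replicate block, with the GC offset, without SFN replicate 2 and vehicle replicate 2, and without any 1 of the 12 libraries, and in the 5 comparisons that could be fitted on the compared groups alone. The number of genes called overall did. For SFN+ZA against vehicle it was 0 with 12 libraries, 6 with DESeq2's Wald test, 52 without SFN replicate 2 and vehicle replicate 2, 579 with the GC offset as well, and 0 to 19 when each library was left out in turn, the highest without SFN replicate 2. With the GC offset and those 10 libraries it was 5 for SFN against vehicle, 13 for ZA against vehicle, 111 for SFN+ZA against SFN and 17 for SFN+ZA against ZA, each against 0 with 12 libraries. The cause of these changes was not tested. With the replicate block 0 genes were called in each comparison, as without it; same-numbered libraries of SFN+ZA and vehicle, SFN+ZA and SFN, SFN+ZA and ZA, and ZA and vehicle share only a number, with correlations of -0.0455 to 0.295, -0.0598 to 0.304, -0.298 to -0.0775 and -0.478 to 0.108. Levels of the 9 genes stayed within 1 SD of the deposited FPKM when recomputed as CPM per kilobase or over 10 libraries. That SD is over 12 libraries and so includes the 2 that stood apart: for FASN it was 38.3 FPKM, against 13.0 FPKM over 10. The order of means changed over 10 libraries, with FASN (130 FPKM) above INSIG1 (112 FPKM) and SCAP (17.1 FPKM) above STARD4 (14.6 FPKM).

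For the 9 genes, HMGCS1 and the list genes named from the fit of 12 libraries, the log2 fold changes below had the other sign than in that fit, and none of them was called. Without SFN replicate 2 and vehicle replicate 2, for SFN+ZA against vehicle SREBF1, SREBF2, SCAP, ACACA, HMGCS1 and TMEM129 were at -0.02, -0.03, -0.03, 0.01, 0.03 and -0.00. Between SFN and vehicle INSIG1 and STARD5 were at -0.01 and 0.15. In ZA against vehicle SREBF2, SCAP, STARD4, HMGCS1 and TMEM129 were at -0.02, -0.00, 0.05, 0.09 and -0.08. For SFN+ZA against ZA FASN was at -0.00. In the interaction STARD5 was at -0.02.

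With a GC offset, between SFN+ZA and vehicle SREBF1, SREBF2, SCAP, FASN and STARD3 were at -0.21, -0.05, -0.26, -0.32 and -0.03. In SFN against vehicle INSIG1, INSIG2, STARD4 and HMGCS1 were at -0.03, -0.13, -0.21 and -0.05. For ZA against vehicle SREBF1, SCAP and FASN were at -0.09, -0.14 and -0.20. Between SFN+ZA and SFN SREBF1, SCAP, FASN, ACACA, STARD4, HMGCS1, TMEM129 and SMPDL3A were at -0.18, -0.25, -0.17, -0.07, 0.01, 0.01, -0.04 and 0.02. In SFN+ZA against ZA FASN was at -0.11. In the interaction SREBF1, SCAP, INSIG2, STARD4, HMGCS1 and NR1H3 were at -0.09, -0.11, 0.00, 0.11, 0.04 and -0.05.

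With both that offset and those 10 libraries, for SFN+ZA against vehicle SREBF1, SREBF2, SCAP, FASN, HMGCS1, TMEM129 and APOE were at -0.16, -0.15, -0.17, -0.06, 0.05, -0.15 and -0.04. Between SFN and vehicle SREBF1, SREBF2, SCAP, INSIG1, INSIG2, FASN, STARD4 and STARD5 were at 0.00, 0.01, 0.04, -0.05, -0.10, 0.14, -0.05 and 0.17. In ZA against vehicle SREBF1, SREBF2, SCAP, STARD4, HMGCS1 and TMEM129 were at -0.02, -0.06, -0.05, 0.02, 0.07 and -0.13. For SFN+ZA against SFN SREBF1, SREBF2, SCAP, FASN, HMGCS1, TMEM129, STARD3 and APOE were at -0.16, -0.16, -0.21, -0.20, 0.03, -0.33, -0.02 and -0.12. Between SFN+ZA and ZA FASN and ACACA were at -0.12 and -0.00. In the interaction SREBF1, SREBF2, SCAP, FASN and STARD5 were at -0.13, -0.10, -0.16, -0.26 and -0.07.

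With the GC offset and the replicate block, in SFN+ZA against vehicle SREBF1, SREBF2, SCAP, FASN and STARD3 were at -0.21, -0.03, -0.25, -0.30 and -0.03. For SFN against vehicle INSIG1, INSIG2, STARD4 and HMGCS1 were at -0.03, -0.12, -0.21 and -0.05. Between ZA and vehicle SREBF1, SCAP and FASN were at -0.08, -0.14 and -0.18. In SFN+ZA against SFN SREBF1, SCAP, FASN, ACACA, STARD4, HMGCS1 and SMPDL3A were at -0.18, -0.25, -0.18, -0.06, 0.01, 0.01 and 0.04. For SFN+ZA against ZA FASN, ACACA and CYP51A1 were at -0.12, -0.00 and -0.02. In the interaction SREBF1, SCAP, STARD4, HMGCS1 and NR1H3 were at -0.10, -0.11, 0.10, 0.04 and -0.05.

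With the replicate block alone, between SFN+ZA and ZA FASN and CYP51A1 were at -0.03 and -0.00.

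With no filter on low counts, in SFN+ZA against ZA FASN was at -0.01.

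Log2 fold changes whose sign turned when 1 library was left out had these lowest and highest values over the 12 such fits: for SFN+ZA against vehicle, ACACA at -0.06 to 0.03, HMGCS1 at -0.28 to 0.04, SCAP at -0.01 to 0.43 and SREBF2 at -0.02 to 0.43. Between SFN and vehicle, FASN at -0.76 to 0.13, HMGCS1 at -0.03 to 0.41, INSIG1 at -0.10 to 0.12, INSIG2 at -0.11 to 0.46, NR1H2 at -0.76 to 0.08, SCAP at -0.72 to 0.07, SREBF1 at -0.70 to 0.05, SREBF2 at -0.63 to 0.11, STARD4 at -0.06 to 0.37 and STARD5 at -0.90 to 0.04. In ZA against vehicle, HMGCS1 at -0.22 to 0.10, SAR1B at -0.46 to 0.00, SREBF2 at -0.01 to 0.44, STARD4 at -0.38 to 0.05 and TMEM129 at -0.07 to 0.68. For SFN+ZA against SFN, ACACA at -0.03 to 0.13. Between SFN+ZA and ZA, ACACA at -0.04 to 0.06, CYP51A1 at -0.10 to 0.29, FASN at -0.09 to 0.07, HMGCS1 at -0.12 to 0.04, NR1H3 at -0.07 to 0.24, SCAP at -0.10 to 0.02, SREBF1 at -0.13 to 0.04, SREBF2 at -0.06 to 0.01 and STARD5 at -0.19 to 0.50. In the interaction, FASN at -0.13 to 0.76, SCAP at -0.10 to 0.69, SCD at -0.02 to 0.15, SREBF1 at -0.10 to 0.66 and SREBF2 at -0.13 to 0.62.

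Counting error is small beside the spread between libraries, since the lowest count of a member was 351. Precision is limited by 3 libraries a group, by the 2 libraries that stood apart, and by counting whose use of strand is not given.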
